A study of Rattus norvegicus with 10 samples.

Results

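The genes described here encode voltage-gated sodium channels, voltage-gated calcium channels, HCN pacemaker channels, TRP cation channels and ClC chloride channels and exchangers. They were gathered by name, as symbols that begin with Scn, Hcn, Trpc, Trpm, Trpv or Clcn and a digit, or with Cacna, Cacnb or Cacng. These families were chosen with earlier results of these data known. In the platform annotation 63 probe sets with a single symbol matched, and they stood for 62 of the 14324 genes measured. Trpc4ap was caught by the pattern, although it encodes a protein that binds a TRPC channel and is no channel itself.

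Expression was measured on 10 arrays of left ventricle RNA from Sabra rats, an albino strain, with 2 arrays for each of 5 groups and 1 pool of 5 animals on each array. Control rats were untreated and 1 month old. The other groups had entered heat of 34 °C at an age of 3 weeks. AC2d rats had 2 days of heat and were labelled 1 month old, and AC30 rats had 30 days of heat and were 2 months old. DeAC rats had 30 days of heat followed by 30 days at 24 °C, and ReAC rats had the same followed by 2 more days at 34 °C, both at an age of 3 months. AC2d against control and ReAC against DeAC thus compared equal labelled ages, whereas in AC30, DeAC and ReAC against control, and in DeAC against AC30, heat history and age cannot be told apart. Nor can they when the 2 equal-age comparisons are set against each other, since these were made at 1 and 3 months. Values are log2 signals, changes are differences of log2 group means ± the standard error of the limma fit, with n = 2 pools per group, and a gene is said to have risen, fallen or differed when its p-value, adjusted over all 14324 genes, was under 0.05.

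Ventricular muscle markers were high in all 10 pools, with a mean log2 signal of the 10 listed genes between 12.27 and 12.48. Markers of atrial muscle were measured as well, although the tissue was labelled left ventricle. The mean of 7 of the 8 listed atrial markers was 10.93 and 9.08 in the control pools, 11.18 and 11.25 in AC2d, 11.75 and 11.62 in AC30, 7.16 and 7.16 in DeAC, and 10.36 and 10.40 in ReAC. None of the 7 was below a log2 signal of 5 in every array. Control pool 1 also stood above the other pools in the mean of 10 autonomic neuron markers (5.90 against 4.97 to 5.32) and of 7 adipocyte markers (7.48 against 5.87 to 6.89). In tissue RNA, fewer cells of a type and less RNA per cell cannot be told apart.

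Sodium channels carry the upstroke of the action potential, and their beta subunits shape its gating. L-type calcium channels trigger contraction, while T-type calcium channels and the HCN channels, which open on hyperpolarization and bind cyclic AMP, are known for pacemaking in the sinus node. Working ventricular muscle has more T-type and HCN4 channel before birth than in the adult. TRP channels pass calcium and other cations in response to lipids, heat or stretch, and the ClC family includes both chloride channels of the cell surface and exchangers of endosomes.

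Among the 5 groups 14 of the 62 genes differed (limma F test), or 22.6%, which is close to the 22.2% of all genes that did. They were Hcn2, Hcn4, Cacna1d, Cacna1g, Cacna1h, Cacna2d2, Cacna2d3, Scn1a, Scn3a, Scn4b, Scn7a, Clcn1, Clcn4 and Trpc4ap. Among the 40% dimmest of all genes lay 36 of the 62, and 3 of these 36 differed (Cacna1d, Cacna2d3 and Scn3a), or 8.33%, against 5.32% of all such dim genes. Of the 26 brighter genes 11 differed, or 42.3%, against 33.4% of all brighter genes. Against control, 3 of 62 genes passed in AC2d (2.53% of all genes), 2 of them higher (0.663%) and 1 lower (1.86%). In AC30 8 passed (8.53% of all genes), 6 higher (3.57%) and 2 lower (4.96%). In DeAC 5 passed (8.22% of all genes), all of them higher (4.45%, against 3.77% of all genes lower), and in ReAC 5 passed (10.9% of all genes), again all higher (5.63%, against 5.28% lower). ReAC differed from DeAC in 2 genes (3.91% of all genes), both lower (2.21%, against 1.7% higher), and DeAC from AC30 in 15 (17.3% of all genes). The median change of the 62 genes lay between -0.04 and 0.03 in these 6 comparisons, and that of all genes between -0.02 and 0.01. The 4 comparisons against control share the same control pools.

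**Figure D1:**
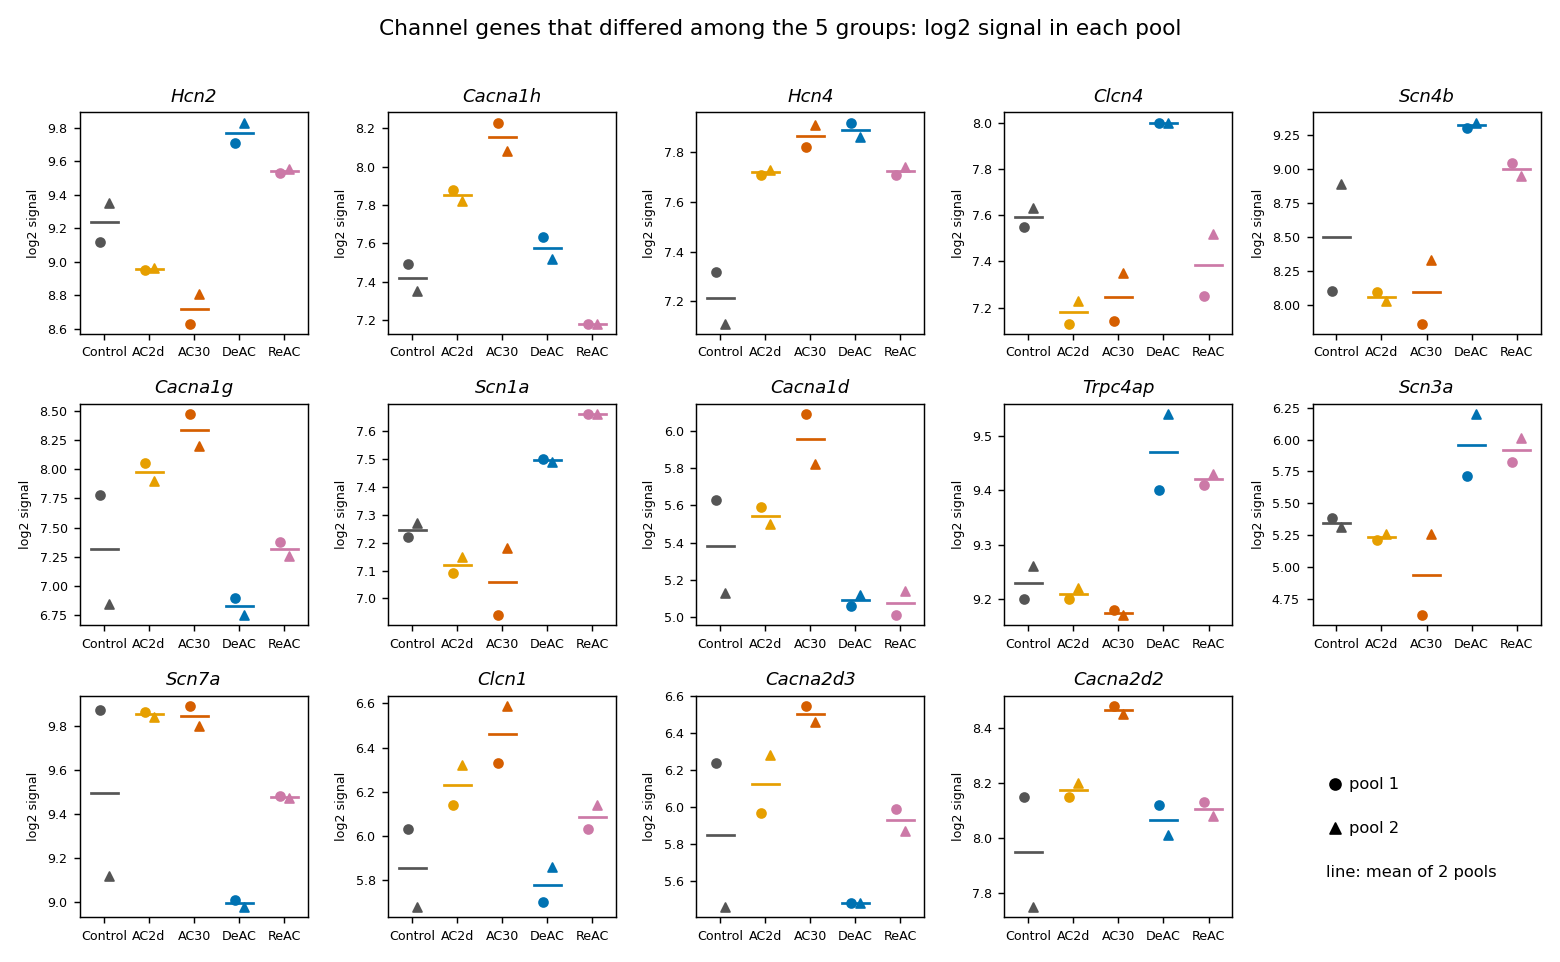
Log2 signal (vertical axes) of the 14 genes that differed among the 5 groups (horizontal axes), with a circle for pool 1, a triangle for pool 2 and a line for the mean. Hcn4 has its lowest 2 pools in control, Cacna1h has its lowest in ReAC, and Cacna1g, Cacna2d3 and Scn7a show control pools far apart.

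**Figure D2:**
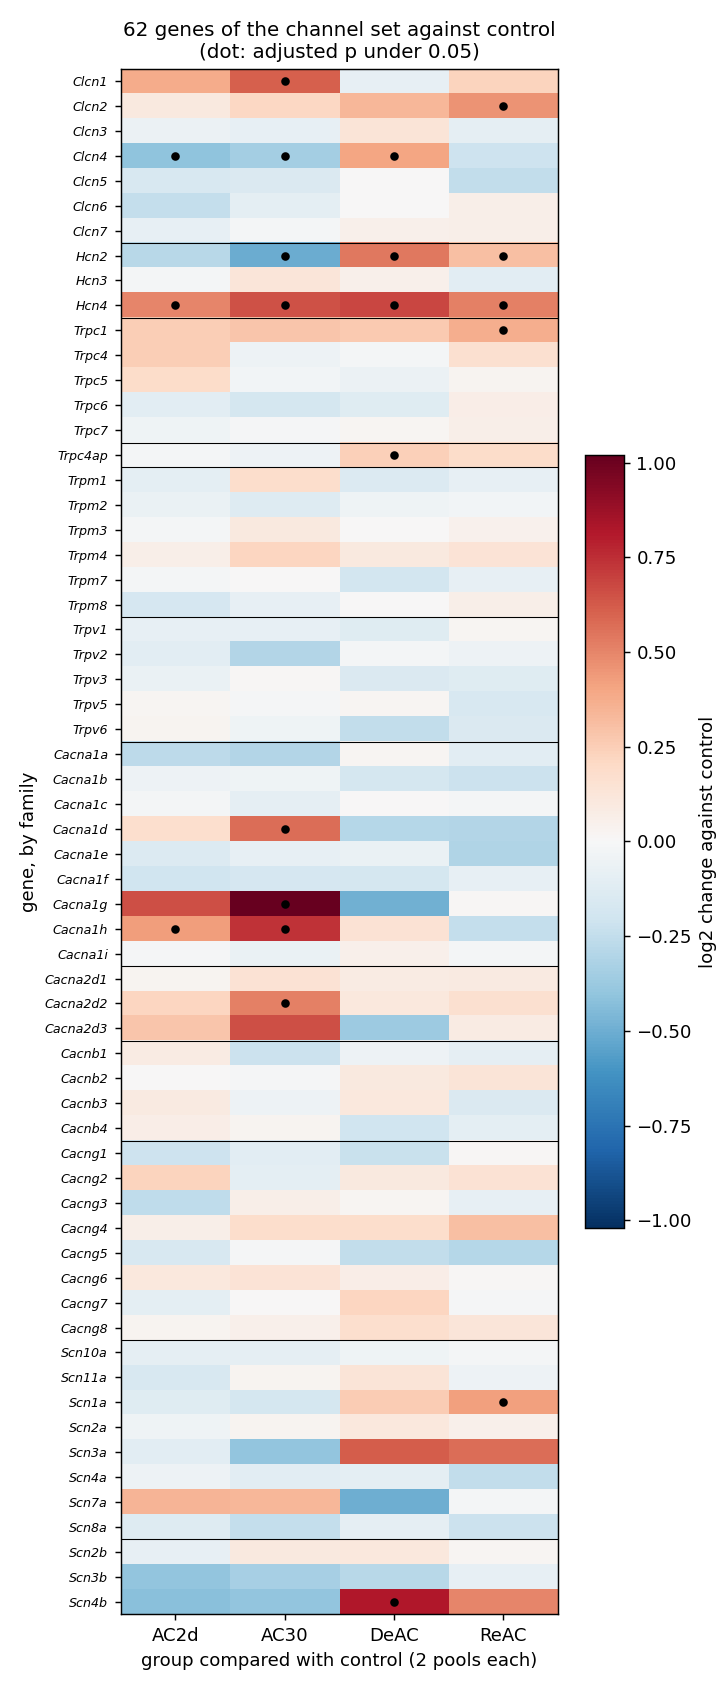
Log2 change against control (colour) for the 62 genes, ordered by family (rows), in AC2d, AC30, DeAC and ReAC (columns), with a black dot where the adjusted p was under 0.05. Hcn4 has a dot in all 4 columns and Hcn2 changes from lower in AC30 to higher in DeAC and ReAC.

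To show the genes behind the turn between AC30 and DeAC that is described below, the promoter windows of 4 of them are given, 2 that were higher in DeAC than in AC30 (Hcn2 and Scn4b) and 2 that were lower (Cacna1d and Cacna2d3). They are RefSeq sequences of build GRCr8, read 5′ to 3′ along the gene, with 250 bases before the annotated start and 50 after it. Capitals mark GGGCGG, the GC box bound by Sp-family factors, on either strand, overlapping matches included. Hcn2 lies at chr7:10639408-10639707 on the minus strand, Scn4b at chr8:54343623-54343922 on the plus strand, Cacna1d at chr16:5527500-5527799 on the minus strand and Cacna2d3 at chr16:4918850-4919149 on the minus strand.
Hcn2: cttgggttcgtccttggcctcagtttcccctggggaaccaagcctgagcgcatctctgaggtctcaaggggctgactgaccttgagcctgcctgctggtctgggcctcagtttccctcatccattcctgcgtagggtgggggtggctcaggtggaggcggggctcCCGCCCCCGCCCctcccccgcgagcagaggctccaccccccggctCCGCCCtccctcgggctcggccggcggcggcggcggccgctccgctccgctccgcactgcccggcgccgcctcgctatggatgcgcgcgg
Scn4b: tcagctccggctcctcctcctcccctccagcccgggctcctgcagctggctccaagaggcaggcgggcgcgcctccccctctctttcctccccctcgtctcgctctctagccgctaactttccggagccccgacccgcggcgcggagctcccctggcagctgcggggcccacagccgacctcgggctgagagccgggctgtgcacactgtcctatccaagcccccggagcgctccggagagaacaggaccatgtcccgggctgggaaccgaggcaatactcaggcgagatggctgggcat
Cacna1d: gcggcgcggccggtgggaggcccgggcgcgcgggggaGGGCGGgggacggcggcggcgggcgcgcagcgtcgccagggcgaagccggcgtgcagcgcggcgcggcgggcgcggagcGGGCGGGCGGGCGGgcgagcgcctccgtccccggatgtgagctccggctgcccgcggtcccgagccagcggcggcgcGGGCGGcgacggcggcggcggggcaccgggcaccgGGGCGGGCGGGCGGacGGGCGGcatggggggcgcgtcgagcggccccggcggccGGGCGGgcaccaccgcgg
Cacna2d3: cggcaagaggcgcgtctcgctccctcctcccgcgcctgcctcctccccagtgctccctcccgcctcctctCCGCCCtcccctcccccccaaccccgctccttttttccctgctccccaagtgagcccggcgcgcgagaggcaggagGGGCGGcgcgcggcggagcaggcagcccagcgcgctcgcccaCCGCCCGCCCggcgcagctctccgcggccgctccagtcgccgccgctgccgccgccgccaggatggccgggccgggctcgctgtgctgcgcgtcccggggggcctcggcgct
Windows were found for 49 of the 62 genes, and for 10 of the 14 that differed among the groups. Hcn4, Cacna1h, Cacna1g and Scn1a had no window, so no motif was searched for them. The median GC content of the 49 windows was 59.7%, against 51.7% over all 33469 windows. Their median number of CpG pairs was 16, against 7. GGGCGG was present in 21 of 49 windows (42.9%, against 33.1% of all windows) and TATAAA in 4 (8.16%, against 14.2%). GAANNTTC, a pair of heat shock element units, was found in 3 (6.12%, against 8.59%) and in 0 of the 10 windows of genes that differed among the groups. TTCNNGAA, its inverted form, was found in 0 of 49 (against 8.77%). The T-box element AGGTGTGA was in 2 (4.08%, against 1.1%), the NRSF element part CAGCACC in 3 (6.12%, against 6.78%) and the cyclic AMP response element TGACGTCA in 1 (2.04%, against 1.83%). All motifs were searched on both strands.

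Hcn4, the main pacemaker channel of the sinus node, was above control in every group with a heat history. Its log2 signal was 7.32 and 7.11 in the control pools, 7.71 and 7.73 in AC2d, 7.82 and 7.91 in AC30, 7.92 and 7.86 in DeAC, and 7.71 and 7.74 in ReAC. The control pools were the lowest 2 of the 10 and did not overlap with any other group. Hcn4 rose by 0.50 ± 0.08 in AC2d (1.42-fold, adjusted p = 0.00472), by 0.65 ± 0.08 in AC30 (1.57-fold, adjusted p = 0.000352), by 0.68 ± 0.08 in DeAC (1.6-fold, adjusted p = 0.000303) and by 0.51 ± 0.08 in ReAC (1.42-fold, adjusted p = 0.00131). DeAC differed from AC30 by 0.03 ± 0.08 (adjusted p = 0.884), so that after 30 days at 24 °C no change of Hcn4 passed the test. These calls held when any single array was left out, except in AC2d, where the adjusted p was 0.0673 without AC2d replicate 1 and 0.0726 without AC2d replicate 2. With the atrial marker mean as a covariate the DeAC change was 0.98 (adjusted p = 0.00985) and the ReAC change 0.46 (adjusted p = 0.00078), while AC2d (0.37, adjusted p = 0.0863) and AC30 (0.47, adjusted p = 0.0731) did not pass.

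Hcn2, the other HCN gene with a bright signal here and known as the main HCN channel of rat ventricle, fell in AC30 and was above control in DeAC and ReAC. The control pools had 9.12 and 9.35, AC2d 8.95 and 8.96, AC30 8.63 and 8.81, DeAC 9.71 and 9.83, and ReAC 9.53 and 9.55. No 2 groups overlapped, and the order ran from AC30 through AC2d, control and ReAC to DeAC. The change against control was -0.28 ± 0.08 in AC2d (adjusted p = 0.0933), -0.51 ± 0.08 in AC30 (adjusted p = 0.00153), 0.54 ± 0.08 in DeAC (adjusted p = 0.00128) and 0.31 ± 0.08 in ReAC (adjusted p = 0.0245). The ReAC call ended without control replicate 1 (change 0.19, adjusted p = 0.154), ReAC replicate 1 (0.115) or ReAC replicate 2 (0.139). From AC30 to DeAC Hcn2 rose 2.07-fold (1.05 ± 0.08, adjusted p = 2.78e-06), a call that held without any single array. The step from DeAC to ReAC was -0.23 ± 0.08 (adjusted p = 0.143). With the atrial covariate the ReAC change was 0.36 (adjusted p = 0.0017), while AC30 (-0.29, adjusted p = 0.228) and DeAC (0.16, adjusted p = 0.781) did not pass. Hcn3, among the 40% dimmest genes, had 5.48 and 5.62 in control, 5.69 and 5.36 in AC2d, 5.74 and 5.59 in AC30, 5.72 and 5.48 in DeAC, and 5.48 and 5.40 in ReAC. No difference of it passed (F test adjusted p = 0.709).

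Cacna1h, a T-type calcium channel, rose in both heated groups without a break and lay lowest after the second exposure. Its log2 signal was 7.49 and 7.35 in control, 7.88 and 7.82 in AC2d, 8.23 and 8.08 in AC30, 7.63 and 7.52 in DeAC, and 7.18 and 7.18 in ReAC. All 5 groups were separate, with AC30 on top and ReAC at the bottom. The rise was 0.43 ± 0.08 in AC2d (1.35-fold, adjusted p = 0.0145) and 0.74 ± 0.08 in AC30 (1.66-fold, adjusted p = 0.000201). The AC2d call ended without control replicate 2 (adjusted p = 0.0744), AC2d replicate 1 (0.186) or AC2d replicate 2 (0.102), while the AC30 call held without any single array and with the atrial covariate (0.60, adjusted p = 0.0315). With that covariate the AC2d change was 0.34 (adjusted p = 0.188). DeAC lay 0.58 ± 0.08 below AC30 (adjusted p = 0.000286) and 0.15 ± 0.08 above control (adjusted p = 0.302). ReAC lay 0.40 ± 0.08 below DeAC (adjusted p = 0.0178), a call that ended without DeAC replicate 1 (0.135), DeAC replicate 2 (0.0565), ReAC replicate 1 (0.132) or ReAC replicate 2 (0.129), and with the atrial covariate (-0.65, adjusted p = 0.299). Against control the ReAC change was -0.24 ± 0.08 (adjusted p = 0.0813).

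Cacna1g, the other T-type channel with a clear signal, rose in AC30 against the control mean, but the control pools lay far apart. They had 7.78 and 6.85, against 8.05 and 7.90 in AC2d, 8.47 and 8.20 in AC30, 6.90 and 6.75 in DeAC, and 7.38 and 7.26 in ReAC. A gap of 0.94 between the control pools was reached by 0.454% of all genes, and the control range took in both ReAC pools and the upper DeAC pool. The AC30 change was 1.02 ± 0.21 (2.03-fold, adjusted p = 0.00801). It was 0.55 without control replicate 2, and did not pass without AC30 replicate 1 (adjusted p = 0.0905). The AC2d change of 0.66 ± 0.21 did not pass (adjusted p = 0.133). The fall from AC30 to DeAC, which does not involve the control pools, was 2.85-fold (-1.51 ± 0.21, adjusted p = 0.000206) and held without any single array. The third T-type gene, Cacna1i, ranged from 5.06 to 5.36 and did not differ (F test adjusted p = 0.937).

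The L-type channel genes went separate ways. Cacna1c, the pore of the ventricular L-type channel, had log2 signals of 9.27 and 9.40 in control, 9.30 and 9.34 in AC2d, 9.28 and 9.21 in AC30, 9.32 and 9.36 in DeAC, and 9.31 and 9.33 in ReAC. The control range took in every other pool except 1 AC30 pool, and the changes against control were between -0.09 and 0.00, each ± 0.06. Cacnb2, the main cardiac beta subunit, had 8.98 and 9.01 in control, 8.99 and 8.99 in AC2d, 9.0 and 8.97 in AC30, 9.14 and 9.04 in DeAC, and 9.09 and 9.15 in ReAC (F test adjusted p = 0.2). Cacna2d1, whose product carries the channel to the membrane, had 9.37 and 9.20 in control, 9.27 and 9.37 in AC2d, 9.46 and 9.40 in AC30, 9.37 and 9.38 in DeAC, and 9.38 and 9.38 in ReAC (F test adjusted p = 0.407). Neither partner differed among the groups. Cacna1d, the L-type channel of sinus node and atrium, had 5.63 and 5.13 in control, 5.59 and 5.50 in AC2d, 6.09 and 5.82 in AC30, 5.06 and 5.12 in DeAC, and 5.01 and 5.14 in ReAC. It lay above all other pools in AC30, by 0.57 ± 0.15 against control (adjusted p = 0.0334), and DeAC was lower than AC30 by 0.87 on the log2 scale (-0.87 ± 0.15, adjusted p = 0.00127). The rise against control was 0.33 without control replicate 2 (adjusted p = 0.308), and it did not pass without AC30 replicate 1 (0.232), without either AC2d pool (0.0563 each) or without a ReAC pool (0.0511 and 0.0509).

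Both other alpha2delta subunit genes followed the same order of AC30 and DeAC. Cacna2d2 had 8.15 and 7.75 in control, 8.15 and 8.20 in AC2d, 8.48 and 8.45 in AC30, 8.12 and 8.01 in DeAC, and 8.13 and 8.08 in ReAC, and Cacna2d3 had 6.24 and 5.46, 5.97 and 6.28, 6.55 and 6.46, 5.48 and 5.48, and 5.99 and 5.87 in the same groups. For both, the AC30 pools were the highest 2 of 10. Cacna2d2 rose by 0.51 ± 0.10 in AC30 (adjusted p = 0.00725), but by 0.31 without control replicate 2 and with an adjusted p of 0.059 without AC30 replicate 1. Between AC30 and DeAC it fell (-0.40 ± 0.10, adjusted p = 0.0147), though not without AC30 replicate 1 (0.0846), without DeAC replicate 2 (0.119) or with median scaling (-0.26, adjusted p = 0.148). Cacna2d3 was 0.66 ± 0.19 above control in AC30 (adjusted p = 0.0531) and fell 2.04-fold from AC30 to DeAC (-1.03 ± 0.19, adjusted p = 0.0021). Cacna1a, a P/Q-type channel known from nerve terminals, had 6.14 and 6.20 in control, 5.92 and 5.87 in AC2d, 5.84 and 5.91 in AC30, 6.25 and 6.14 in DeAC, and 6.11 and 6.02 in ReAC. DeAC was 0.32 ± 0.10 above AC30 (adjusted p = 0.045). This did not pass without any 1 of the 8 AC2d, AC30, DeAC and ReAC pools, with adjusted p-values up to 0.192. The 8 gamma subunit genes, which in the brain also serve glutamate receptors, had group means within 0.33 of each other, and in limma 0 of 8 passed in any comparison, with 0 to 2 of them at an unadjusted p under 0.05. Neither did any of the 4 beta subunit genes pass.

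Among the sodium channels, Scn4b, a beta subunit that speeds recovery of the current, had the largest change between AC30 and DeAC. It had 8.10 and 8.89 in control, 8.09 and 8.03 in AC2d, 7.86 and 8.33 in AC30, 9.30 and 9.34 in DeAC, and 9.04 and 8.95 in ReAC. The DeAC and ReAC pools were all above the other pools, and control pool 2 lay just below them while control pool 1 lay among the AC2d and AC30 pools. Scn4b rose 2.34-fold from AC30 to DeAC (1.22 ± 0.19, adjusted p = 0.000476), a call that held without any single array and was the tenth largest rise among the 1411 genes that rose there. Against control the DeAC change was 0.82 ± 0.19 (adjusted p = 0.016), but 0.43 without control replicate 1 (adjusted p = 0.0654), and it did not pass without DeAC replicate 1 (0.0747) or replicate 2 (0.111).

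Scn7a, a sodium-sensing channel of glia and other non-muscle cells that is not opened by voltage, did the reverse. Its signal was 9.87 and 9.12 in control, 9.86 and 9.84 in AC2d, 9.89 and 9.80 in AC30, 9.01 and 8.98 in DeAC, and 9.48 and 9.47 in ReAC. DeAC had the lowest 2 pools and fell 1.8-fold below AC30 (-0.85 ± 0.15, adjusted p = 0.00162), while no change against control passed (DeAC -0.50 ± 0.15, adjusted p = 0.0625). Schwann cell markers, of which 7 of 9 were measured, had a mean of 6.58 and 6.26 in control, 6.36 and 6.39 in AC2d, 6.51 and 6.41 in AC30, 6.17 and 6.14 in DeAC, and 6.44 and 6.26 in ReAC. Fibroblast markers, 11 of 11 measured, had means of 10.50 and 10.48 in AC30 and 9.92 and 9.94 in DeAC. Their part in the Scn7a values was not tested.

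Scn1a and Scn3a, alpha subunits best known from neurons, had their highest signals in DeAC and ReAC. Scn1a had 7.22 and 7.27 in control, 7.09 and 7.15 in AC2d, 6.94 and 7.18 in AC30, 7.50 and 7.49 in DeAC, and 7.66 and 7.66 in ReAC. Every DeAC and ReAC pool lay above every other pool. ReAC was 0.42 ± 0.09 above control (adjusted p = 0.0087, but 0.0706 without ReAC replicate 1 and 0.0701 without ReAC replicate 2) and DeAC 0.44 ± 0.09 above AC30 (adjusted p = 0.00368). Scn3a, among the 40% dimmest genes, had 5.38 and 5.31 in control, 5.21 and 5.26 in AC2d, 4.62 and 5.26 in AC30, 5.71 and 6.20 in DeAC, and 5.82 and 6.01 in ReAC. DeAC was 1.02 ± 0.19 above AC30 (adjusted p = 0.00197), and again every DeAC and ReAC pool lay above every other pool, although neither DeAC (0.62, adjusted p = 0.0642) nor ReAC (0.57, adjusted p = 0.0732) passed against control. Its second probe set, which was dimmer, gave 5.07 and 4.99 in AC30 and 5.30 and 5.55 in DeAC. The same probe set gave 5.61 and 5.125 in control and 5.435 and 5.634 in ReAC. There control pool 1 lay above both DeAC pools and 1 ReAC pool, so the separation seen in the brighter probe set did not hold. Markers of autonomic neurons, 10 of 12 measured, had a mean of 4.97 and 5.09 in DeAC and 5.01 and 4.98 in ReAC, and 5.32 and 5.18 in AC30. Scn4a, the alpha subunit of skeletal muscle, had 4.98 and 5.20 in control, 5.24 and 4.83 in AC2d, 5.13 and 4.82 in AC30, 5.08 and 4.90 in DeAC, and 4.92 and 4.74 in ReAC (F test adjusted p = 0.717). The beta subunit Scn3b had 5.42 and 5.36 in control, 5.08 and 4.88 in AC2d, 4.79 and 5.30 in AC30, 5.04 and 5.17 in DeAC, and 5.41 and 5.20 in ReAC (F test adjusted p = 0.217). Neither differed among the groups. The alpha subunit genes Scn2a, Scn8a, Scn10a and Scn11a and the beta subunit Scn2b did not pass in any comparison.

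Of the ClC genes, Clcn4, an endosomal chloride-proton exchanger, was lower than control in AC2d and AC30 and higher in DeAC. It had 7.55 and 7.63 in control, 7.13 and 7.23 in AC2d, 7.14 and 7.35 in AC30, 8.0 and 8.0 in DeAC, and 7.25 and 7.52 in ReAC. The 6 pools taken in the heat were all below both control pools, and both DeAC pools were above them. Clcn4 was higher in DeAC than in AC30 (0.75 ± 0.10, 1.68-fold, adjusted p = 0.000173), a call that held without any single array. It fell from DeAC to ReAC (-0.61 ± 0.10, 1.53-fold, adjusted p = 0.00477, but 0.0793 without ReAC replicate 1). The changes against control were smaller, with -0.21 ± 0.10 in ReAC (adjusted p = 0.225), and the 3 calls among them did not hold without some single arrays. The AC2d and AC30 calls also ended with the values as deposited (adjusted p = 0.113 and 0.116), with median scaling (0.2 and 0.168), without the variance trend (0.137 and 0.103) and with the atrial covariate (0.298 and 0.62). With that covariate the DeAC call (0.744) and the fall from DeAC to ReAC (0.743) ended too. AC2d (-0.41 ± 0.10, adjusted p = 0.0473) did not pass without control replicate 2 (0.164), AC2d replicate 1 (0.348), AC2d replicate 2 (0.179), DeAC replicate 1 (0.0756) or DeAC replicate 2 (0.075). AC30 (-0.35 ± 0.10, adjusted p = 0.0488) did not pass in 7 of 10 such fits, all but those without AC30 replicate 2 or a ReAC pool, with adjusted p-values up to 0.303. DeAC (0.40 ± 0.10, adjusted p = 0.0247) did not pass without control replicate 1 (0.0924), DeAC replicate 1 (0.0985) or DeAC replicate 2 (0.127).

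Clcn1, the chloride channel of skeletal muscle membrane, had 6.03 and 5.68 in control, 6.14 and 6.32 in AC2d, 6.33 and 6.59 in AC30, 5.70 and 5.86 in DeAC, and 6.03 and 6.14 in ReAC. It rose in AC30 (0.61 ± 0.14, adjusted p = 0.0155, but 0.135 without control replicate 2 and 0.0997 without AC30 replicate 2) and was lower in DeAC than in AC30 (-0.69 ± 0.14, adjusted p = 0.00344). Skeletal muscle markers, 8 of 9 measured, had a mean between 7.22 and 7.39 in all 10 pools. Clcn2, a hyperpolarization-activated chloride channel, had 5.69 and 5.49 in control, 5.62 and 5.76 in AC2d, 5.86 and 5.73 in AC30, 5.94 and 5.92 in DeAC, and 5.96 and 6.15 in ReAC. The ReAC pools were the highest 2 of the 10. ReAC was 0.46 ± 0.12 above control (adjusted p = 0.0232), but not without control replicate 2 (0.147), ReAC replicate 1 (0.052) or ReAC replicate 2 (0.196), nor with the values as deposited (0.0601). Clcn3, an endosomal exchanger, had 8.25 and 8.34 in control, 8.22 and 8.26 in AC2d, 8.20 and 8.22 in AC30, 8.41 and 8.44 in DeAC, and 8.22 and 8.20 in ReAC. It was 0.21 ± 0.06 higher in DeAC than in AC30 (adjusted p = 0.0339), a call that ended without any 1 of the AC2d, AC30, DeAC or ReAC pools, with adjusted p-values up to 0.163. Clcn5, Clcn6 and Clcn7, exchangers of endosomes and lysosomes, did not pass in any comparison.

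Of the 16 TRPC, TRPM and TRPV genes, 12 lay among the 40% dimmest genes and 4 above them. By the limma F test 0 of the 16 differed, with 1 at an unadjusted p under 0.05, against 5.32% of all dim and 33.4% of all brighter genes. The comparison of ReAC with control called 1 of them, Trpc1, a channel subunit linked to stretch and store-operated calcium entry, with 7.97 and 7.60 in control, 8.04 and 8.03 in AC2d, 8.09 and 8.04 in AC30, 8.09 and 8.02 in DeAC, and 8.22 and 8.09 in ReAC. It was 0.37 ± 0.10 above control in ReAC (adjusted p = 0.0315), but 0.18 without control replicate 2 (adjusted p = 0.251), and did not pass without ReAC replicate 1 (0.235), ReAC replicate 2 (0.0751) or either AC2d pool (0.0551 each). Trpm7, a channel with a kinase domain that passes magnesium, had 8.98 and 8.80 in control, 8.91 and 8.82 in AC2d, 8.87 and 8.90 in AC30, 8.69 and 8.70 in DeAC, and 8.84 and 8.78 in ReAC. Its 2 lowest pools were those of DeAC, with a change of -0.19 ± 0.07 against control that did not pass (adjusted p = 0.098). Trpc6, a channel opened by diacylglycerol, had 5.63 and 5.53 in control, 5.6 and 5.33 in AC2d, 5.36 and 5.44 in AC30, 5.32 and 5.6 in DeAC, and 5.77 and 5.53 in ReAC (F test adjusted p = 0.577). Trpm4, a cation channel opened by calcium, had 6.75 and 6.65 in control, 6.76 and 6.75 in AC2d, 7.03 and 6.79 in AC30, 6.80 and 6.81 in DeAC, and 6.87 and 6.81 in ReAC (F test adjusted p = 0.477). Neither differed among the groups. Trpv2, which is known in heart muscle, had 6.49 and 6.64 in control, 6.48 and 6.43 in AC2d, 6.36 and 6.16 in AC30, 6.53 and 6.57 in DeAC, and 6.51 and 6.52 in ReAC (F test adjusted p = 0.184), with the lowest 2 pools in AC30. The heat-activated channel Trpv1, at 4.45 to 4.76, and the cold-activated channel Trpm8, at 4.28 to 4.71, had dim signals with F test adjusted p-values of 0.84 and 0.658. Trpc4ap, the channel-binding protein, had 9.20 and 9.26 in control, 9.20 and 9.22 in AC2d, 9.18 and 9.17 in AC30, 9.40 and 9.54 in DeAC, and 9.41 and 9.43 in ReAC. It rose in DeAC (0.24 ± 0.06, adjusted p = 0.0197, but 0.0896 without control replicate 1 and 0.201 without DeAC replicate 2) and was 0.30 ± 0.06 higher there than in AC30 (adjusted p = 0.00269).

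The first and the second 2 days of heat were compared through the difference of 2 differences, ReAC minus DeAC less AC2d minus control. It asks whether older hearts with a heat history respond differently from younger hearts without one. The ages were 3 months and 1 month, so heat history and age cannot be told apart. Of all genes 0.3% passed (43 genes), and of the 62 genes 2 passed, Cacna1h and Hcn4, both of them lower in the second response. The Cacna1h pools rose by 0.43 ± 0.08 in the first exposure and fell by 0.40 on the log2 scale in the second, so that the responses differed by -0.83 ± 0.12 (adjusted p = 0.0115). Hcn4 rose by 0.50 ± 0.08 in the first and changed by -0.17 ± 0.08 in the second (adjusted p = 0.319 for the second alone), a difference of -0.68 ± 0.12 (adjusted p = 0.0272). By p-value these were the 9th and the 27th of 14324 genes. They were 2 of the 11 genes with a lower second response, which is 0.0768% of all genes. Because the gene set was chosen with earlier results of these data known, these shares and ranks are not independent of that choice. The DeAC pools from which the second response starts already had 7.92 and 7.86 for Hcn4, above the AC2d pools.

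Both differences kept their direction in every alternative fit, at -0.90 to -0.76 for Cacna1h and -0.78 to -0.58 for Hcn4 when single arrays were left out, but both calls were lost without some single pools. The Cacna1h call ended without AC2d replicate 1 (adjusted p = 0.0849), AC2d replicate 2 (0.0751), DeAC replicate 1 (0.0957), ReAC replicate 1 (0.0756) or ReAC replicate 2 (0.094). The Hcn4 call ended without any 1 of the AC2d, DeAC and ReAC pools. It also ended with the values as deposited (adjusted p = 0.0509), with median scaling (adjusted p = 0.112) and without the variance trend. With the atrial covariate 5 of the 62 genes passed and both were larger in size, at -0.99 for Cacna1h (adjusted p = 0.0073) and -0.89 for Hcn4 (adjusted p = 0.00863), and Cacna1g (-1.19), Scn7a (-0.69) and Scn4b (1.00) passed too. The share of all genes that passed with the covariate is not given here. That fit rests largely on the gap between the control pools, where the atrial mean differed most within a group. Without control replicate 1 the Hcn4 difference was -0.78 and without control replicate 2 it was -0.58. The other 60 genes did not pass, and 6 of the 62 had an unadjusted p under 0.05. Clcn4 changed in the same direction both times, by -0.41 ± 0.10 and -0.61 ± 0.10, as did Cacna1g, by 0.66 ± 0.21 and 0.50 ± 0.21, where neither change passed.

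**Figure D3:**
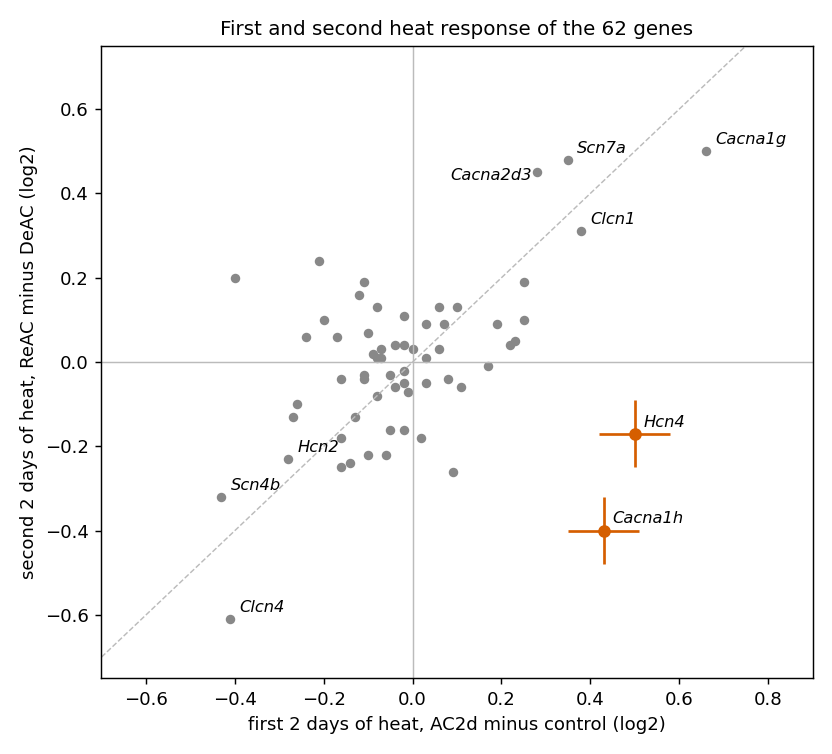
Log2 change in the first 2 days of heat (AC2d minus control, horizontal) and in the second (ReAC minus DeAC, vertical) for the 62 genes, 1 point per gene, with the line of equal response dashed. Hcn4 (0.50 and -0.17) and Cacna1h (0.43 and -0.40), with standard error bars, lie far below the line.

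The largest group of changes among the channel genes lay between AC30 and DeAC, where 8 genes were higher (9.85% of all genes) and 7 lower (7.45% of all genes) in DeAC. Marker genes of other cell types also changed in this comparison. From AC30 to DeAC all 7 atrial markers fell, with a median change of -4.88, and all 11 fibroblast markers, with a median of -0.64. Of the mesothelial markers 3 of 5 fell (median -1.14), of the adipocyte markers 3 of 7 (median -1.10) and of the smooth muscle and pericyte markers 3 of 9 (median -0.09), while 2 of 10 macrophage markers rose (median 0.20). The part of the cell types other than atrial muscle in the channel values was not tested. The control pools, which shared treatment and age, differed in the atrial mean (10.93 and 9.08), and for 14 of the 15 channel genes pool 1 differed from pool 2 in the direction in which AC30 differed from DeAC. The other was Scn3a, higher in DeAC but 0.07 higher in control pool 1. The same share was not computed over all genes that passed in this comparison. Control pool 1, with the higher atrial level, was higher than pool 2 by 0.94 for Cacna1g, 0.79 for Cacna2d3, 0.75 for Scn7a, 0.49 for Cacna1d, 0.40 for Cacna2d2 and 0.36 for Clcn1, all of which were higher in AC30. It was lower by 0.79 on the log2 scale for Scn4b and by 0.23 for Hcn2, which were higher in DeAC. For the others of the 14 the gap was small, with 0.14 for Cacna1h, -0.09 for Clcn3, -0.08 for Clcn4, -0.06 for Cacna1a and Trpc4ap and -0.05 for Scn1a. The median size of the control gap was 0.1 over all genes, so the signs of these small gaps carry little weight. Gaps over 0.5 between the 2 pools of a group occurred for 4 of the 62 genes in control, 3 in AC30, 1 in ReAC and 0 in AC2d and DeAC, against 252, 166, 34, 32 and 154 of all genes.

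With the atrial marker mean of each array as a covariate, 1 of the 15 genes that passed in DeAC against AC30 still passed, and in the opposite direction. This was Scn7a, with 0.99 ± 0.18 (adjusted p = 0.0143) in place of -0.85. Signs also turned, without passing, for Cacna1g (0.80), Cacna2d3 (0.92), Cacna2d2 (0.59), Cacna1d (0.38), Clcn1 (0.16), Scn4b (-0.79) and Clcn3 (-0.01). Hcn2 (0.45 ± 0.23), Clcn4 (0.55), Scn1a (0.27), Scn3a (1.10), Cacna1a (0.15), Trpc4ap (0.16) and Cacna1h (-0.23) kept theirs without passing. The standard error for Hcn2 without the covariate was 0.08. The atrial mean differed more between AC30 and DeAC than between any other groups, and within groups it differed mainly between the control pools, so this fit gives that comparison wide errors. In AC30 against control, Cacna1g (0.17, adjusted p = 0.849), Cacna1d (0.11, adjusted p = 0.948), Cacna2d2 (0.15, adjusted p = 0.753) and Clcn1 (0.30, adjusted p = 0.705) did not pass with the covariate. ReAC and control, whose atrial levels were closer, kept all 5 genes that had passed between them (Hcn4, Hcn2, Scn1a, Clcn2 and Trpc1). They gained 5 more, namely Scn4b (0.67, adjusted p = 0.000332), Cacna1d, Cacna1h, Scn7a and Trpc4ap. The covariate can take up the gap between the control pools, which was large for Scn4b (-0.79), Scn7a (0.75) and Cacna1d (0.49). The gains of those genes are therefore not separate support for a difference from control.

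**Figure D4:**
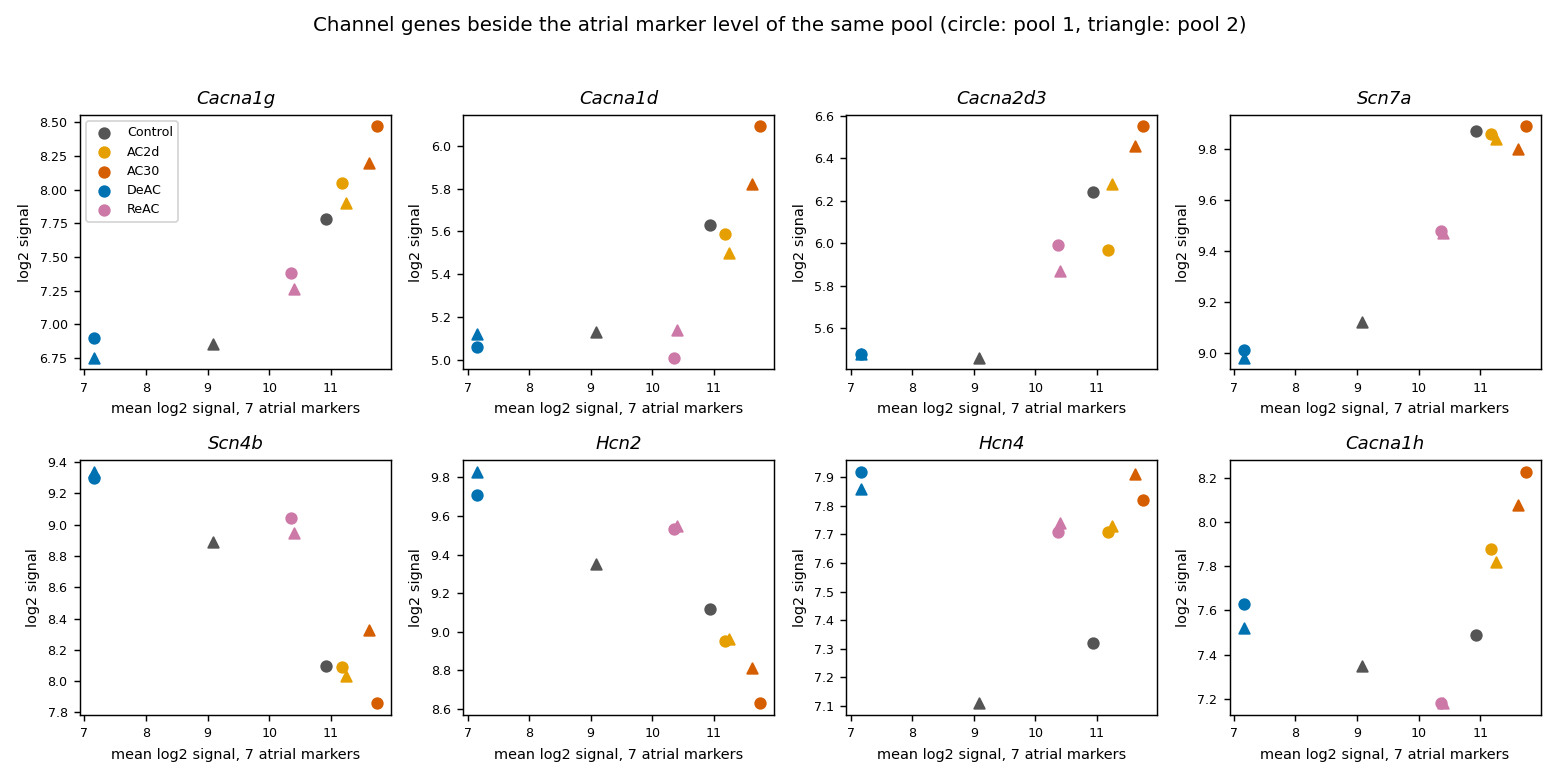
Log2 signal of 8 channel genes (vertical) against the mean log2 signal of 7 atrial markers (horizontal) in the same 10 pools, with colours for the groups, circles for pool 1 and triangles for pool 2. Cacna1g, Cacna2d3 and Scn7a are higher, and Scn4b and Hcn2 lower, in the control pool with the higher atrial level (10.93) than in the other (9.08), and the 2 Hcn4 control points are the lowest for that gene.

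Genes around the channels were described from lists of regulators, partners and transcription factors. Of 22 measured regulators of sodium and calcium channels, 4 differed among the groups (limma F test), or 18.2%, against 22.2% of all genes. Calm3, one of the genes for calmodulin, which binds both kinds of channel, was below control in each group, by 0.34 on the log2 scale in AC2d (-0.34 ± 0.05, adjusted p = 0.00455), and by -0.29 ± 0.05, -0.22 ± 0.05 and -0.56 ± 0.05 in AC30, DeAC and ReAC. Calm2 was lower in DeAC (-0.34 ± 0.05) and ReAC (-0.41 ± 0.05). Fgf13, an intracellular factor that binds sodium channels, was higher in DeAC (0.44 ± 0.11) and ReAC (0.46 ± 0.11), and Rrad, an inhibitor of L-type channels, was lower in ReAC than in DeAC (-0.28 ± 0.07, adjusted p = 0.0334). The median change of this list lay between -0.05 and 0.04 in the 6 comparisons, beside -0.02 to 0.01 for all genes.

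Of 14 measured transcription factors of pacemaker and conduction tissue, 6 differed (F test), or 42.9%, against 22.2% of all genes. Whether the list differs from other genes was not tested. Tbx5 (0.89 ± 0.14) and Etv1 (0.67 ± 0.12), both active in atrial muscle, rose in AC30, and both fell from AC30 to DeAC (-1.20 ± 0.14 and -0.79 ± 0.12). Their control pools lay apart, at 9.09 and 8.41 for Tbx5 and 8.54 and 8.11 for Etv1. Etv1 rose in AC2d as well (0.59 ± 0.12, adjusted p = 0.0175). Irx3 (0.61 ± 0.08) and Irx5 (0.65 ± 0.10) were higher in DeAC than in AC30, as were Hey2 and Tbx3. The median change of the list lay between -0.05 and 0.13 in the 6 comparisons. Rest, a repressor known to act on Hcn4 and Cacna1h in mouse ventricle and named after its values were seen, ranged from 7.65 to 7.84 and did not pass in any comparison. Conduction tissue markers, 8 of 9 measured, had a mean of 6.28 and 5.85 in control and between 5.85 and 6.23 elsewhere, and Tbx3, Shox2 and Isl1 stand on both lists. By the F test 3 of the 8 differed (Vsnl1, Tbx3 and Smoc2), or 37.5%, against 22.2% of all genes. Vsnl1, with control pools at 6.72 and 4.87, rose in AC30 (1.34 ± 0.38, adjusted p = 0.0452). It was lower in DeAC than in AC30 (-2.08 ± 0.38, adjusted p = 0.00167).

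Of 16 measured partners of HCN, TRP and ClC channels, 4 differed, or 25%, which is near the 22.2% of all genes. Among them was the calcium release channel Itpr1, which rose in AC30 (0.51 ± 0.07) and was lower in DeAC than in AC30 (-0.76 ± 0.07, adjusted p = 1.07e-05). Fkbp4, a co-chaperone that binds TRPC channels, had a lower second than first heat response (-0.41 ± 0.08, adjusted p = 0.0445). Of 21 measured store-operated and related cation channels 1 differed, or 4.76%, against 22.2% of all genes. This was Tpcn1, an endosomal cation channel that was lower in ReAC than in DeAC (-0.29 ± 0.06, adjusted p = 0.0272). Orai1, the pore of store-operated entry, was 0.22 ± 0.07 higher in DeAC than in AC30 (adjusted p = 0.0488).

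The authors' deposited table of signed folds against control, 651 probe sets that each reach 1.5 in some group, held 7 of the 63 channel probe sets. For Hcn4 the authors' deposited table gives 1.42 in AC2d, 1.57 in AC30, 1.65 in DeAC and 1.45 in ReAC. For Hcn2 the authors' deposited table gives -1.22, -1.44, 1.51 and 1.27 in the same order, a minus sign standing for a lower value. Its other channel genes are Cacna1g, Cacna1h, Cacna2d3, Clcn1 and Scn4b, and the largest entry in the authors' deposited table among these is 2.02 for Cacna1g in AC30.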

How the data were processed

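RNA of 10 left ventricle pools was hybridised as biotin-labelled cDNA to Affymetrix arrays, per the labels' protocols. The authors deposited log2 signals per probe set. How they were summarised and normalized was not stated in the labels or headers used here, and the number of arrays limits the precision. The authors also deposited signed fold values, treated as a score, for 651 probe sets, per the file headers, and differences of group means matched them within 0.0395 on the log2 scale. Of the probe sets, 15097 have 1 gene symbol in the platform annotation, 323 several and 11922 none. No deposited column of values was left unassigned to a sample.

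Log2 values were quantile normalized, and the brightest probe set by mean over all arrays was kept per gene, which left 14324 genes with no filter on low values. All 5 groups were fitted together in limma 3.58.1 (R 4.3.3; lmFit, eBayes with trend; 5 residual and 8.3 prior degrees of freedom), with two-sided tests and Benjamini-Hochberg adjustment over all genes at 0.05. In a test on simulated data of AC2d and control (14324 genes, of which 200 were changed), 77.6% of changes of 0.5 and 100% of changes of 1 (log2) were recovered, and 5.57% of calls were false. The simulated noise was normal, independent between genes and drawn from the fitted spread of each gene. Values are given for a set of genes fixed by role, for every member that passed a test, and for up to 4 genes per pathway list and comparison. The members and lists were chosen with earlier results of these data known. Results were also computed from the deposited values unchanged, and with median scaling, no variance trend, no dim genes, the mean of probe sets, a replicate block, an atrial marker covariate, only the compared groups, and each array left out. Tables were made with Python 3.11.15 and pandas 2.3.3.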

Additional observations from a re-analysis of the deposited data

Results flagged for a closer look

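The response to 2 days of heat differed between rats without and with a heat history for 2 of the 62 channel genes, by a limma test of that difference itself. Of all genes 0.3% passed this test, and 0.0768% passed with a lower second response. The gene set was chosen with earlier results of these data known, so these 2 calls are not independent of that choice. For Cacna1h, a T-type calcium channel, the second response minus the first was -0.83 on the log2 scale (adjusted p = 0.0115, n = 2 pools per group). For Hcn4, a pacemaker channel, it was -0.68 (adjusted p = 0.0272). In each case the first response was a rise that passed the test, and the second was a fall that passed for Cacna1h (-0.40) and a change that did not pass for Hcn4 (-0.17). Rats of the second comparison were 3 months old and those of the first 1 month old, so heat history and age cannot be told apart. Both differences lost their call without some single pools, at -0.9 to -0.76 for Cacna1h and -0.78 to -0.58 for Hcn4. Both first rises and the Cacna1h fall (-0.45 to -0.34) also lost theirs without some single pools. The Hcn4 difference did not pass with the values as deposited, with median scaling or without the variance trend.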

How the results depend on the processing

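Of 40 passed tests in 18 channel genes, 18 kept their call whichever array was left out, and 9 changed sign in some setting, all with the atrial marker covariate. Those were Scn4b in DeAC against control (-0.44) and, in DeAC against AC30, Cacna1d (0.38), Cacna1g (0.80), Cacna2d2 (0.59), Cacna2d3 (0.92), Clcn1 (0.16), Clcn3 (-0.01), Scn4b (-0.79) and Scn7a (0.99). With that covariate 9 of the 40 kept their call, and the cause was not tested. Within groups the atrial mean differed mainly between the control pools, so calls gained with the covariate rest largely on their gap. The calls kept were 35 of 40 with the values as deposited, 35 with median scaling, 28 without the variance trend, 25 with only the compared groups, 40 with the mean of probe sets and 35 of 35 without the 40% dimmest genes. The number of channel genes that passed in AC2d against control was 3, and became 1 without the trend, 0 with the covariate and 0 with only those groups. For AC30 against control 8 became 1 with the covariate and 3 with only those groups, and for DeAC against control 5 became 2 without the trend and 3 with only those groups. With the covariate 5 passed there as well, but of the first 5 only Hcn4 was among them, since Clcn4 (adjusted p = 0.744), Hcn2 (0.781), Scn4b (0.513) and Trpc4ap (0.747) did not pass. For ReAC against control 5 became 10 with the covariate and 3 with only those groups. For ReAC against DeAC 2 became 1 without the trend and 7 with only those groups, and with the covariate both calls ended (Cacna1h 0.299, Clcn4 0.743) while Cacna1g and Scn7a passed, and for DeAC against AC30 15 became 1 with the covariate. The 2 genes whose second heat response differed became 1 with the values as deposited, 1 with median scaling, 1 without the trend and 5 with the covariate. The shares of all genes that passed in each setting are not given in this section. Its counts thus show how calls depend on the processing, not whether channel genes differ from other genes. Leaving out 1 array at a time gave 12 to 16 genes for the F test, 0 to 11 for AC2d, 4 to 12 for AC30, 2 to 10 for DeAC and 1 to 7 for ReAC against control. It gave 0 to 6 for ReAC against DeAC, 12 to 16 for DeAC against AC30 and 0 to 3 for the second against the first response. The count of 11 for AC2d arose without control replicate 1, and that of 10 for DeAC without control replicate 2. With the replicate number as a block, 5 genes passed in AC2d against control and 39 of the 40 calls were kept. Differences between pools 1 and 2 correlated between groups at -0.077 to 0.21 over all genes, so the numbers were not taken to pair the pools. With 2 pools per group, and 36 of the 62 genes among the dimmest 40%, a change that did not pass is not shown to be absent. In simulated AC2d and control data 77.6% of changes of 0.5 (log2) were recovered. Those data held no gap shared by many genes, as between the real control pools, so recovery in the real data may be lower.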
